A study of Mus musculus with 2 samples.

Results

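The region described here is the stretch of mouse chromosome 19 that carries the genes of 2 long noncoding RNAs, Malat1 and Neat1, together with the called binding sites of the transcription factors SOX9 and SOX6 in rib chondrocytes. Its members are all called peaks with a centre on chr19:5780000-5856000 (mm9), which are 29 of the 23865 Sox9 peaks and 29 of the 79107 Sox6 peaks, or 58 of 102972 peaks in all. The region was chosen from the same peak lists, for its number of Sox9 peaks and for how few of these lay on Sox6 peaks. Both of these values are therefore given as a description and without a test. Malat1 was taken as about chr19:5795700-5802700 and Neat1 as about chr19:5824700-5845500, both on the minus strand. These extents belong to the definition of the region, are rounded to 100 bp, and were not read from an mm9 annotation.

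The Sox9 peaks are the submitters' re-analysis of 2 earlier Sox9 ChIP-seq samples of mouse primary rib chondrocytes, called in the manner of the Sox6 peaks. The sources used here give neither strain nor age for them. The Sox6 peaks come from 1 chromatin immunoprecipitation with an antibody to Sox6, in untreated wild-type primary rib chondrocytes of ICR mice at postnatal day 1, dissected to keep proliferative and prehypertrophic cartilage and to leave out mature hypertrophic cartilage. There was 1 sample of input DNA from the same kind of cells, made without antibody, and no list of its own was analysed here. With 1 list per factor and no read counts or scores, no value carries a replicate error, sequencing depth is unknown, and the cell type could not be checked against marker genes. The lists come from separate experiments, so the factor, the antibody, the animals and the library cannot be told apart as sources of a difference between them.

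Malat1 RNA stays in the nucleus and gathers at nuclear speckles, the bodies that store splicing factors. Its 3′ end is cut to release a small tRNA-like RNA, mascRNA. Neat1 RNA is the scaffold of paraspeckles, nuclear bodies that hold RNA-binding proteins such as SFPQ and NONO, and its long form is needed to build them. Both RNAs are abundant in many cell types. SOX9, which cartilage formation requires, and SOX6, a SOXD protein that works with it in chondrocytes, both bind DNA through an HMG box with a preference for words such as AACAAT and AACAAAG. In the RefSeq gene table for GRCm38 the entry for mascRNA lies inside that of Malat1. The lengths there, 6983 bp for Malat1 and 20773 bp for Neat1, are close to the rounded mm9 extents of 7000 and 20800 bp. The table lists 1 transcript for Malat1 and 2 for Neat1.

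A peak of each list met at the start of Malat1, so the promoter of this gene is shown. The RefSeq promoter table held 1 of the 2 genes. The sequence below is from GRCm38.p6, chr19:5802623-5802922, minus strand, and the 50 bases in capitals lie after the gene start. It was not placed against the mm9 peaks.

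Malat1 promoter: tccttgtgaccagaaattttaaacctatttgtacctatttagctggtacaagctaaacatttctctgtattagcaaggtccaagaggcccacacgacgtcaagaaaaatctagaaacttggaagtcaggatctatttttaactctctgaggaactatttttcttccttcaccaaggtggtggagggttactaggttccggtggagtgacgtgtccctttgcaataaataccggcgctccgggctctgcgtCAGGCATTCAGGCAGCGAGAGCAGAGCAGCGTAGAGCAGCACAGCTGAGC

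These 300 bases have a GC content of 47.0%. The 4 words named next hold the core that SOX factors favour. They were searched on both strands, and they overlap each other, since AACAAT contains ACAAT and AACAAAG contains ACAAAG. No match was found for any of the 4 in this window. Among the 32851 mouse promoters of the table, ACAAT occurs in 31.0%, ACAAAG in 18.7%, AACAAT in 10.7% and AACAAAG in 5.85%. The absence of these letters from this window says nothing about whether a SOX protein binds there.

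The peaks of the factors were arranged differently along the locus: 14 of the 29 Sox9 peaks but 4 of the 29 Sox6 peaks had their centre inside Malat1 or Neat1. The genes held 5.04 Sox9 peaks and 1.44 Sox6 peaks per 10 kb, and the rest of the locus held 3.11 Sox9 peaks and 5.19 Sox6 peaks per 10 kb. The 22 kb between the genes was the stretch richest in Sox6, with 7 Sox9 and 17 Sox6 peaks. As a yardstick, the span of chromosome 19 covered by peaks held 0.127 Sox9 and 0.42 Sox6 peaks per 10 kb, so that both factors were dense at the locus.

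**Figure D1:**
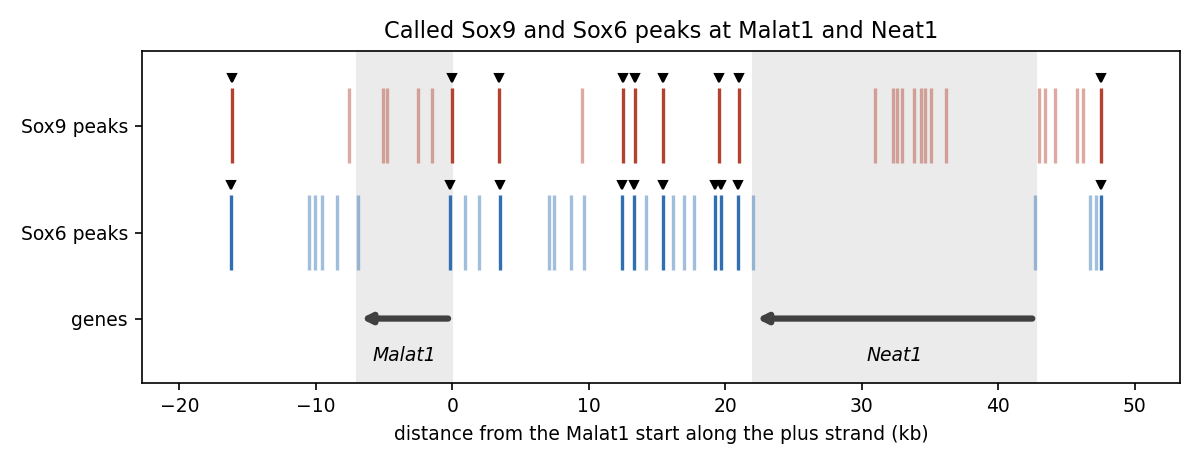
Positions of called peaks along the locus in kb from the Malat1 start, with 29 Sox9 peaks (red, upper row) and 29 Sox6 peaks (blue, lower row); each line is a peak centre, dark lines with a triangle are peaks with at least 1 bp in common with the other list, grey bands are the genes and the arrows their direction of transcription. Inside Neat1 the 9 Sox9 peaks form a group in the middle, whereas both Sox6 peaks lie at the gene's ends.

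Few of the Sox9 peaks lay on a Sox6 peak. Peaks with at least 1 bp in common with the other factor's list count as shared. Of the 29 Sox9 peaks 9 were shared, or 31.0% (exact binomial 95% interval 15.3 to 50.8), and of all Sox9 peaks 76.7% were. Of the 29 Sox6 peaks 10 were shared, or 34.5% (17.9 to 54.3), and of all Sox6 peaks 23.1% were. These intervals cover counting error only and treat peaks as independent, which neighbouring peaks are not. With a gap of up to 1000 bp between peak edges, 15 of the 29 Sox9 peaks had a Sox6 peak on or beside them. Over the whole Sox9 list 90.8% of peaks did. Likewise 21 of the 29 Sox6 peaks had a Sox9 peak on or beside them, and 32.3% of the whole Sox6 list did. The whole-list shares are printed for scale only, because the locus was chosen on overlap.

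Where the unshared Sox9 peaks lay can be read by segment. The genes held 14 Sox9 peaks with 1 shared (7.14%), and the flanking and intergenic sequence held 15 with 8 shared (53.3%). Of all Sox9 peaks 76.7% were shared, and the locus was chosen partly for sparse overlap. Of the 20 unshared Sox9 peaks, 4 were in Malat1, 9 in Neat1 and 5 upstream of Neat1. Between the genes only 1 of the 7 Sox9 peaks was unshared, at chr19:5812140-5812248, with a Sox6 centre 153.5 bp away. For Sox6 the sharing inside and outside the genes was 1 of 4 and 9 of 25 peaks.

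**Figure D2:**
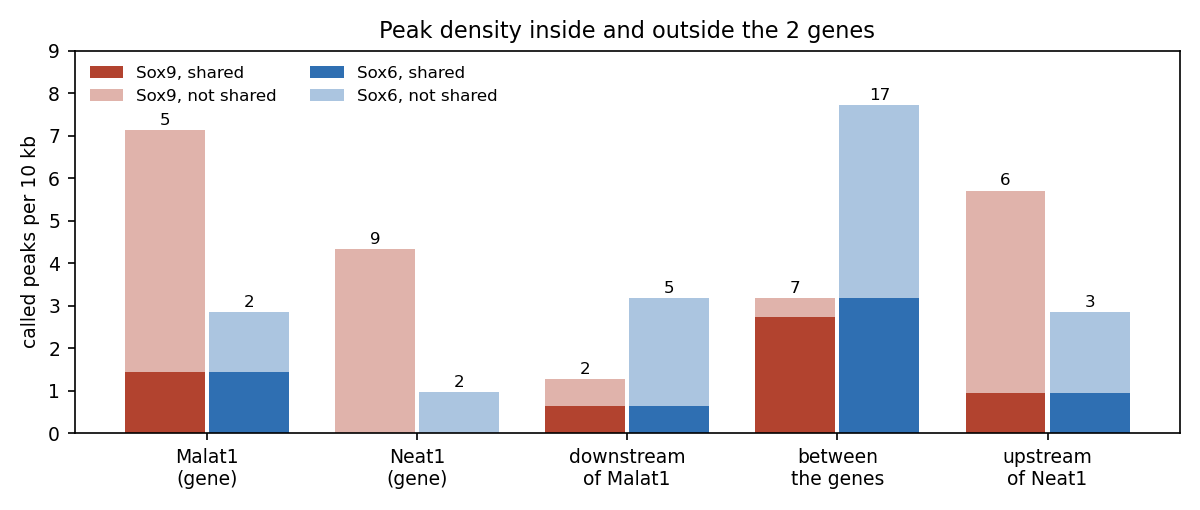
Called peaks per 10 kb in each segment of the locus for Sox9 (red) and Sox6 (blue), with shared peaks dark, unshared peaks pale and the number of peaks above each bar. Sox9 exceeds Sox6 within both genes and upstream of Neat1, and Sox6 exceeds Sox9 between the genes (7 Sox9 and 17 Sox6 peaks) and downstream of Malat1.

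In Neat1, the paraspeckle RNA gene, Sox9 peaks formed a compact group without any Sox6 peak among them. The 9 Sox9 peaks lay on chr19:5833457-5838970, a span of 5.51 kb that begins 6.64 kb into the gene, counted from its start to the nearest peak centre, and reaches 11.81 kb. None of the 9 was shared, where 76.7% of all Sox9 peaks were, but the locus was chosen partly for sparse overlap. The nearest Sox6 centre was a median of 8918 bp away (6566 to 10203 bp). Over the whole Sox9 list, 5.55% of peaks had their nearest Sox6 centre more than 5000 bp away, and at the locus 9 of 29 did, all of them these Neat1 peaks.

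The widths of the Neat1 peaks were uneven. The 3 narrowest spanned 14, 24 and 31 bp, at chr19:5837004-5837017, chr19:5835295-5835318 and chr19:5837286-5837316. The 2 widest spanned 463 bp (chr19:5833457-5833919) and 458 bp (chr19:5836283-5836740). Over the whole locus 4 of 29 Sox9 peaks were under 50 bp wide, against 2.50% of all Sox9 peaks, and 8 were over 300 bp wide, against 9.72%. For Sox6 the corresponding counts were 1 of 29 (2.74% of all Sox6 peaks) and 3 of 29 (8.36%). The median widths at the locus were 214 bp for Sox9 and 145 bp for Sox6, and 183 and 151 bp in the whole lists. The widest peaks of the locus measured 476 bp in either list, at chr19:5821970-5822445 for Sox9, between the genes, and at chr19:5792950-5793425 for Sox6, downstream of Malat1.

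The only Sox6 peaks counted in Neat1 sat at its ends. One, chr19:5824701-5824825, was centred 0.06 kb inside the 3′ end. The other, chr19:5845422-5845437, was only 16 bp wide and centred 0.07 kb inside the start. That narrow peak stood at place 266 of the Sox6 list, the earliest of the locus. Among the first 1000 Sox6 peaks 2, itself included, were 16 bp wide or less, and 371 of all 79107 Sox6 peaks were. The narrow peak overlapped no Sox9 peak, and the nearest Sox9 centre was 250 bp away. Between these 2 Sox6 peaks lay 20.6 kb without a called Sox6 peak.

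Upstream of Neat1, on the side where its promoter lies, came the earliest-listed Sox9 peaks of the locus. The peak nearest the gene start, chr19:5845558-5845801, was centred 0.18 kb upstream and stood at place 1346 of the Sox9 list. Further upstream, chr19:5846754-5846932 stood at place 751 and was centred 1.34 kb from the start, and chr19:5848403-5848549 stood at place 3019 and was centred 2.98 kb from it. None of these 3 overlapped a Sox6 peak, and neither did the peaks at chr19:5845989-5846338 and chr19:5848726-5849035. Of all Sox9 peaks 76.7% did, but the locus was chosen partly for sparse overlap. The 5 Sox9 peaks lay in a stretch of 3.96 kb without a Sox6 peak. Beyond it, at 4.74 kb from the start, the Sox9 peak chr19:5850110-5850375 and the Sox6 peak chr19:5850186-5850299 had the same centre, and the Sox6 peak lay wholly inside the Sox9 one. The Sox6 peaks chr19:5849403-5849500 and chr19:5849781-5849968, at places 70646 and 77874 of the list, had no Sox9 partner.

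Malat1, the speckle RNA gene, showed a like arrangement on a smaller scale. Of its 5 Sox9 peaks, 4 lay between 1.52 and 2.5 kb from the nearer end of the gene. They were chr19:5797545-5797767, chr19:5797813-5797974, chr19:5800133-5800273 and chr19:5800976-5801384. All 4 were unshared, where 76.7% of all Sox9 peaks were shared, and sparse overlap was part of the choice of the locus. Their nearest Sox6 centre was 1331 to 2308 bp away. They lay in a stretch of 6.59 kb without a Sox6 peak. The remaining one, chr19:5802582-5802796, covered the rounded gene start and touched the Sox6 peak chr19:5802439-5802583 by 2 bp, with centres 178 bp apart. The Sox6 peak at the other end, chr19:5795681-5795849, was centred 0.06 kb inside the 3′ end and stood at place 2248 of the Sox6 list.

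In both genes together, all 4 Sox6 peaks were centred within 0.2 kb of a gene end, and 13 of the 14 Sox9 peaks were farther inside. The distances depend on extents that are rounded to 100 bp. The first 50% of each list, in its deposited order, is 11932 Sox9 peaks and 39553 Sox6 peaks, which are unlike lengths. In these parts the genes held 3 Sox9 and 4 Sox6 peaks. The higher number of Sox9 peaks in the genes thus rests on the later part of the Sox9 list. With each gene narrowed by 500 bp at both ends, an alternative added after seeing the data, Malat1 kept 4 Sox9 peaks and no Sox6 peak, and Neat1 kept 9 Sox9 peaks and no Sox6 peak.

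Most of the shared peaks of the locus lay between the genes, upstream of the Malat1 start. In this stretch 6 of 7 Sox9 peaks were shared, or 85.7% (interval 42.13 to 99.64), near the 76.7% of all Sox9 peaks. For Sox6 7 of 17 were, or 41.2% (18.44 to 67.08), and of all Sox6 peaks 23.1%. The closest centres of this stretch, 35.5 bp apart, were those of the Sox9 peak chr19:5818025-5818214 with the Sox6 peak chr19:5818084-5818226, at 15.42 kb from the Malat1 start. Next came the Sox9 peak chr19:5823643-5823725 and the Sox6 peak chr19:5823590-5823703, 37.5 bp apart. The Sox9 peak chr19:5815146-5815255 and the Sox6 peak chr19:5815090-5815232 were 39.5 bp apart. The Sox9 peak chr19:5805947-5806294, 3.42 kb upstream of Malat1, wholly contained the Sox6 peak chr19:5806099-5806265. Another pair, the Sox9 peak chr19:5816043-5816091 and the Sox6 peak chr19:5815918-5816058, overlapped by 16 bp.

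The wide Sox9 peak chr19:5821970-5822445 met 2 Sox6 peaks, chr19:5821925-5822006 and chr19:5822344-5822460, near its opposite edges. This is why 9 shared Sox9 peaks correspond to 10 shared Sox6 peaks. Closer to Malat1, the unshared Sox6 peak chr19:5803536-5803664 stood at place 1097 of its list, the third earliest of the locus, and was centred 0.9 kb upstream of the gene start. Downstream of Malat1, the pair chr19:5786466-5786627 (Sox9) and chr19:5786421-5786580 (Sox6) shared 115 bp. The remaining 4 Sox6 peaks and 1 Sox9 peak of that segment were unshared.

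By median, the Sox9 peaks inside the genes stood later in their deposited list than those outside, but the segments outside differed. The order of the lists is not documented, so places are given as a description. The Sox9 peaks inside the genes had a median place at 75.2% of the list (27.7 to 97.5%), and those outside the genes at 33.3% (3.15 to 99.0%). Outside, the median was 33.3% between the genes and 18.1% upstream of Neat1. Downstream of Malat1 both Sox9 peaks were late, at 69.6 and 78.1%. Of the 14 Sox9 peaks in the genes 11 were in the last 50% of the list, and of the 15 outside 6 were. The Sox6 peaks inside the genes went the other way, with places at 0.336, 0.715, 2.84 and 36.4% of the list, and those outside had a median of 39.4% (1.39 to 98.4%).

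**Figure D3:**
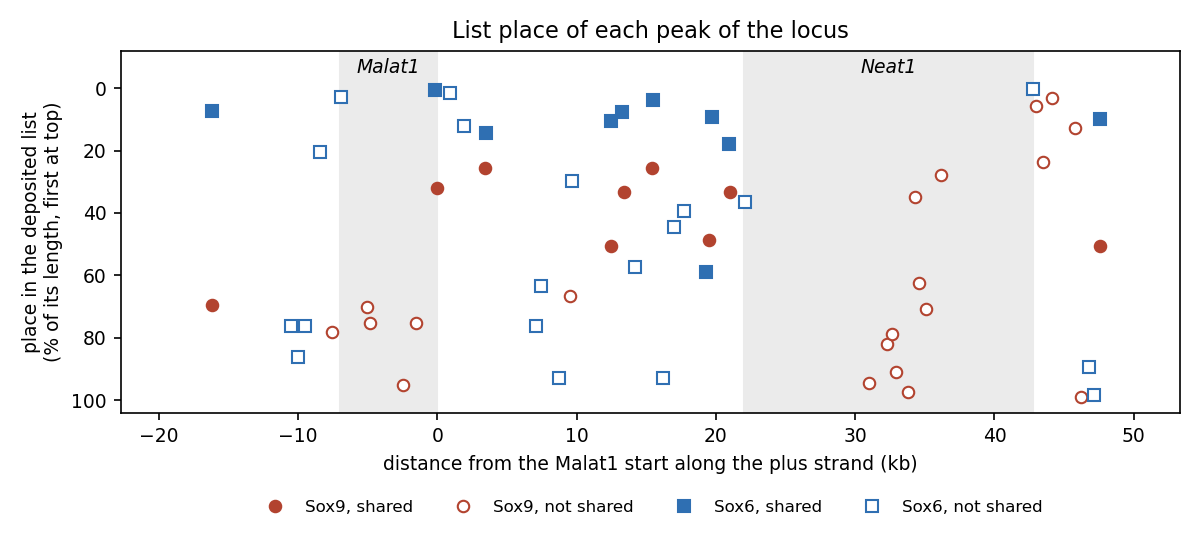
Place of each peak in its deposited list, in percent of the list's length with the first place at the top, against distance from the Malat1 start in kb; red circles are Sox9, blue squares Sox6, filled symbols shared and open symbols unshared, and grey bands the genes. Sox9 peaks within the genes lie mostly low (median 75.2%), and the early Sox9 peaks upstream of Neat1 are open symbols.

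Unshared peaks were found early as well as late in the lists. Of the 12 Sox9 peaks of the locus in the first 50% of the list 6 were shared, where the share over the list was 83.9%. Of the 17 in the last 50% of the list 3 were shared, where it was 69.5%. The locus held 4 Sox9 peaks from the first 25% of the list, all upstream of Neat1, and none of the 4 was shared, where 87.7% of all Sox9 peaks in that part of the list were. This count depends on the limit of 25%, since the next 2 Sox9 peaks of the locus, at 25.5 and 25.6% of the list, were both shared and lay between the genes. Among Sox6 peaks, 9 of the 18 in the first 50% of the list and 1 of the 11 in the last 50% were shared, where the shares over the list were 38.1% and 8.02%. Of the 5 Sox6 peaks from the first 5% of the list 2 were shared (78.3% over the list), and 1 of these 2 was the contact of 2 bp at the Malat1 start. The 3 unshared ones were those at the Neat1 start, at the Malat1 3′ end and 0.9 kb upstream of Malat1.

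Some peaks of the locus stood within 10 places of each other in the deposited lists. Among the 29 Sox9 peaks, 6 had another Sox9 peak of the locus within 10 places of the list. The pairs stood at places 6093 and 6099, 7948 and 7950, and 12083 and 12086. The last of these pairs joins a peak between the genes with the peak farthest upstream of Neat1. Over the whole Sox9 list 5.24% of peaks had another within 10 places and 76 kb. Among the 29 Sox6 peaks 3 did, at places 60191, 60195 and 60196, against 9.63% of the whole Sox6 list. The whole-list shares are not a like measure, since both factors were dense at the locus. A peak here has more others within 76 kb than most peaks of its list.

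Both the locus and a stretch of chromosome 15 were dense in Sox9 peaks. The locus held 29 Sox9 peaks in 76 kb, and chr15:97804275-97868956 held 30 in 64.7 kb, which is more in a shorter span. When the chromosomes were divided into 34739 windows of 76 kb at fixed edges, the highest count outside the locus was 27. Such edges can cut a dense stretch, as on chromosome 15, so the tiling gives no ranking, and the locus was chosen on this count. At least 29 Sox6 peaks were found in each of 31 other windows. In the locus there was 1 Sox6 peak per Sox9 peak, in the whole lists 3.31. Among the 66 other windows with at least 10 Sox9 peaks the ratio was a median of 1.54 (0.1 to 4.7), and in 11 of them Sox9 peaks were at least as many as Sox6 peaks. A ratio near 1 was therefore also found in other windows dense in Sox9.

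**Figure D4:**
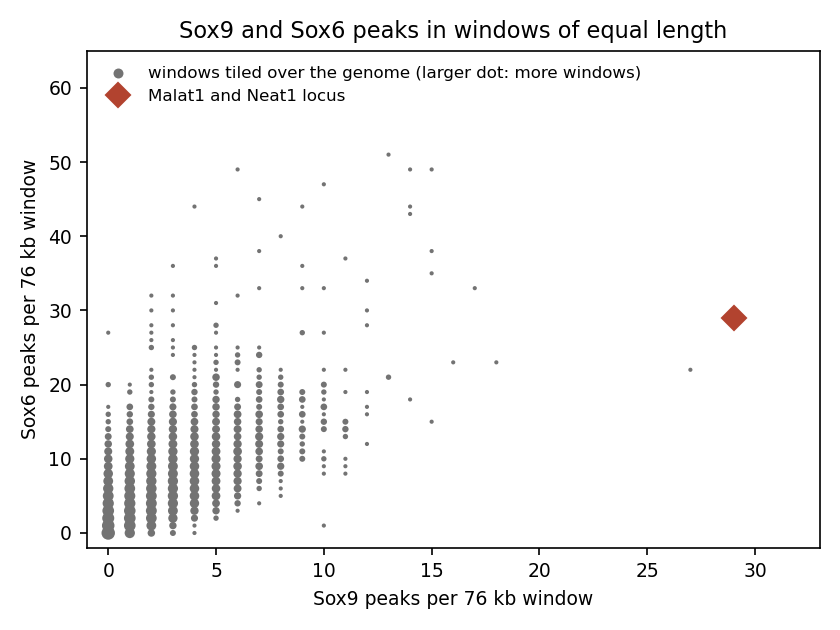
Number of Sox9 peaks (horizontal axis) and of Sox6 peaks (vertical axis) per 76 kb window; grey dots are the 34739 windows tiled over the genome, larger where more windows coincide, and the red diamond is the Malat1 and Neat1 locus with 29 peaks of each. The locus lies at the right with a window of 27 Sox9 peaks; window edges are fixed and can cut a dense stretch, such as the one on chromosome 15 with 30 Sox9 peaks in 64.7 kb.

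Some of the longest series of Sox9 peaks uninterrupted by Sox6 lay here. Of the 78504 gaps between neighbouring Sox6 peaks, 4 held at least 5 unshared Sox9 peaks (0.00510%). One was the 20.6 kb gap across Neat1 with 9 and one the 3.96 kb gap upstream of Neat1 with 5, and only the 16 bp Sox6 peak at the Neat1 start separates them. A gap of 27.5 kb on chr15:97806110-97833646 held 12, and a far longer gap of 2580 kb on chr17:37408045-39984173 held 6. The gap across Malat1, with 4, was among the 14 gaps with at least 4. The Sox9 count and the sparse overlap chose the locus, so that its rank among gaps follows in part from the choice.

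The closest counterpart was a run of Sox9 peaks on chr15:97804275-97868956, where runs are Sox9 peaks with neighbouring centres within 10 kb. It held 30 Sox9 peaks, 11 of them shared (36.7%, interval 19.9 to 56.1), and 17 Sox6 peaks. Over 5 kb from a Sox6 centre were 9 of the 29 Sox9 peaks of the Malat1 and Neat1 locus and 5 of the 30 of the chromosome 15 run. A run on chrX:166413775-166446710 held 20 Sox9 peaks with 12 shared (60.0%, 36.0 to 80.9) and none that far from Sox6. At a distance of 10 kb the Malat1 and Neat1 peaks themselves fell into a run of 14 around Malat1 and between the genes, with 8 shared, and a run of 15 across Neat1 and its upstream side, with 1 shared. The distance that parts them, 10004 bp between centres, is just above that limit. The intervals again treat neighbouring peaks of 1 list as independent, which they are not, so they do not serve to compare regions. These differences between regions were not tested.

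The edges of the region fell in stretches without peaks. The last Sox9 and Sox6 peaks inside were 6.55 and 6.5 kb from the lower edge, and both were 5.76 kb from the upper edge. The first peaks outside lay 30.3 kb (Sox9) and 8.67 kb (Sox6) below the lower edge, and 15.2 and 15.3 kb above the upper edge. Whether the peaks in the genes differ from input, in height or in reproducibility could not be examined with positions alone.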

How the data were processed

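The deposited peak lists name a chromosome, a start and an end for each peak, in 3 columns, and hold no score, count or p-value. Reads were aligned with Bowtie to mm9, per the submitters' processing notes on the Sox6 and input samples, which give no version. Both lists are named with the tag FDR1, which no source used here explains, and the peak caller and the build of the Sox9 list are not stated in those sources. The Sox9 list was read as mm9, since 76.7% of Sox9 peaks overlap Sox6 peaks. Starts were read as counted from 0 and are printed counted from 1. Peaks were assigned by their centre, and distances are between centres. Overlap, distances, gaps, runs and windows were computed in Python 3.11.15 with pandas 2.3.3, numpy 2.4.6 and scipy 1.17.1, and overlap counts were checked against bedtools 2.31.1 and tested on simulated lists. No test between groups was made: there is 1 list per factor, and the region was chosen on these lists. The region, its genes and the alternatives were chosen with earlier results of these data known. Every peak is accounted for by segment. Named with coordinates by rule were the shared pairs, the 3 first-listed peaks, those nearest each gene start and the widest peak of each list, and other peaks were added after their values were seen. Alternatives were other overlap rules, parts of the lists, gene extents and run distances. A list of 10 genes for paraspeckle and speckle proteins was not placed, since no mm9 annotation was used, and no peak sequence was read.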

Additional observations from a re-analysis of the deposited data

How the results depend on the processing

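Of 35 alternatives for the 9 counts, 21 stayed within 1.5 times the reported value. With 50% of both peaks required to overlap, 4 Sox9 and 4 Sox6 peaks of the locus were shared. The shares of all Sox9 and all Sox6 peaks under this rule are not given here. The lower counts therefore cannot be read as a trait of the locus. When gaps of up to 1000 bp were allowed, 15 of the 29 Sox9 peaks and 21 of the 29 Sox6 peaks of the locus counted as shared. Over the whole lists 90.8% of Sox9 peaks and 32.3% of Sox6 peaks did. With both lists cut to their first 50%, 6 Sox6 peaks of the locus were shared. Against the whole Sox9 list 9 of the same 18 Sox6 peaks were, where the share over that part of the Sox6 list was 38.1%. The share of all Sox6 peaks with both lists cut is not given here. In the first 50% of each list the locus held 12 Sox9 and 18 Sox6 peaks, and Malat1 and Neat1 held 1 and 2 Sox9 peaks. Sox9 peaks in the genes were thus fewer than Sox6 peaks in Malat1, and as many in Neat1, where 2 Sox6 peaks remained in each gene. At equal list lengths the locus held 15 Sox6 peaks. With the genes narrowed by 500 bp, chosen after seeing the data, 0 Sox6 peaks remained in Malat1 and 0 in Neat1. The largest Sox9 run of the locus had 15 peaks, but 9 at a distance of 5000 bp and 29 at 20000 bp. The higher count of Sox9 than of Sox6 in the genes therefore rests on the last 50% of the Sox9 list. The first 50% is 11932 peaks for Sox9 and 39553 for Sox6, so the parts compared are unlike in length. The cause of these shifts was not tested beyond the construction of each alternative. No paired analysis was possible because there is 1 list per factor. Depth is unknown, so a missing peak says only that none was called.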
